A study of Mus musculus with 32 samples.

Results

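Cytokine receptors signal through JAK kinases and STAT transcription factors, and the cell damps these signals with inhibitors that block, dephosphorylate or dislodge parts of the pathway. The 8 genes described here code for such inhibitors: the suppressors of cytokine signaling Socs1, Socs2 and Socs3, the protein tyrosine phosphatases Ptpn1, Ptpn2, Ptpn6 and Ptpn11, and Usp18, a protease that removes the ubiquitin-like protein ISG15. They were taken by gene symbol, and all 8 were found among the 12451 genes of the count table. mRNA was measured by BRB-seq, in which barcoded RNA of many wells is pooled and sequenced from the 3′ end of each transcript. The cells were YUMM3.3, a mouse melanoma cell line with mutant Braf, grown in medium with serum and without the other cells of a tumor. The 32 wells formed 8 groups of 4: untreated cells, cells with 40 ng/ml Activin-A, cells with 20 ng/ml IFN-γ and cells with both factors at these doses, each at 4 hrs and at 12 hrs. The doses are those in the labels, and other passages of the study's text give another dose of Activin-A. All wells are of 1 cell line, and the labels say no more of the 4 wells of a group than that they were seeded in quadruplicate, so that p-values measure the spread between wells. The study asked how Activin-A, a secreted protein of the TGF-β family, and IFN-γ affect each other's target genes in melanoma cells alone.

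IFN-γ binds a receptor that carries JAK1 and JAK2, which phosphorylate STAT proteins. Dimers of these bind GAS elements in DNA and induce, among other genes, Irf1, whose product binds ISRE-like elements, and several inhibitors in both sets of targets then act back on the receptor. SOCS proteins bind receptors or JAKs and target them for degradation, with SOCS1 directly inhibiting the JAKs of the IFN-γ receptor, SOCS3 acting mainly on receptors with gp130, and SOCS2 mainly on growth hormone signaling. Of the phosphatases, PTPN1 acts on JAK2 and TYK2, PTPN2 on JAK1, PTPN6 (SHP-1) is best known from blood cells, and PTPN11 (SHP-2) also transmits growth factor signals. USP18 takes ISG15 off its target proteins and blocks the receptor of type I interferons.

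Total counts per well ranged from 654539 to 1455074 with a median of 988020. Values below are CPM, the counts of a gene relative to the total of its well and normalized by the TMM method. A floor of 3 counts, the limit that a count of 0 allows, lay at 1.97 to 4.56 CPM depending on the well and covers counting error only. DEGs had an adjusted p under 0.05 in edgeR's quasi-likelihood test, adjusted over all genes tested by the Benjamini-Hochberg method. Replicate 1 of Activin-A at 4 hrs, the well with the highest total, stood apart from the others of its group, with a chi-squared per gene of at least 2.60 against them, while no other pair of wells of a group was above 1.59. All 8 markers of the melanocyte lineage had a row, and their summed level lay between 324 and 450.1 CPM in every well, with overlapping ranges in all groups. Of 7 leukocyte markers, Cd3e, Itgam and Adgre1 had no row, and Ptprc, the pan-leukocyte marker CD45, averaged between 1.16 and 3.38 CPM in the 8 groups. The summed leukocyte list, most of it Laptm5, was at 173 to 213 CPM with IFN-γ at 12 hrs, 239 to 270.1 in untreated cells and 297 to 371 with Activin-A at that time. At 4 hrs the sum was at 234.7 to 253.7 CPM with IFN-γ, 234.2 to 280.2 in untreated cells and 301 to 337.8 with Activin-A. Its part in the results was not tested. The 2 keratinocyte and the 2 endothelial markers had no row. The treatments showed in their targets, since Irf1 rose with IFN-γ (log2FC 4.22 at 4 hrs and 3.96 at 12 hrs) and Pmepa1, a Smad target, rose with Activin-A (log2FC 2.55 and 1.87). Of the other Smad targets, Skil and Smad7 rose with Activin-A at 4 hrs (log2FC 0.79 and 0.86), and at 12 hrs their log2FC were 0.78 and 0.61 (adjusted p = 0.0988 and 0.0547). With both factors against IFN-γ, the log2FC of Pmepa1 was 2.45 at 4 hrs and 0.93 at 12 hrs (adjusted p = 0.00114), that of Skil 0.93 and 0.06 and that of Smad7 0.34 and 0.44, with only Pmepa1 called at 12 hrs. With both factors against Activin-A at 12 hrs, Pmepa1 and Skil were lower (log2FC -1.24 and -1.26, adjusted p = 2.13e-12 and 0.000827 in edgeR's test). Smad7 was not called there (log2FC -0.51, adjusted p = 0.0811). The interaction at 12 hrs was not called for these 3 genes (for Pmepa1 -0.94, adjusted p = 0.180).

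At both time points, 4 of the 8 genes were DEGs between IFN-γ and untreated cells. Socs1, Socs3 and Usp18 rose and Socs2 fell, and none of the 4 phosphatases passed the test. Among all genes, 5.06% of the 9137 tested were called at 4 hrs and 9.25% of 8971 at 12 hrs. The same 4 genes were called in the same directions between both factors and Activin-A, a comparison that shares no well with the first, where 6.07% of all genes were called at 4 hrs and 9.62% at 12 hrs. In each of these 16 calls the 4 wells with IFN-γ did not overlap the 4 without it. How many of all genes separated in this way was not counted. The median log2FC of the 8 genes with IFN-γ was 0.23 at 4 hrs and 0.17 at 12 hrs, beside -0.01 over all genes tested at either time. For both factors against Activin-A this median was 0.01 at 4 hrs and 0.18 at 12 hrs, again beside -0.01 over all genes tested.

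**Figure D1:**
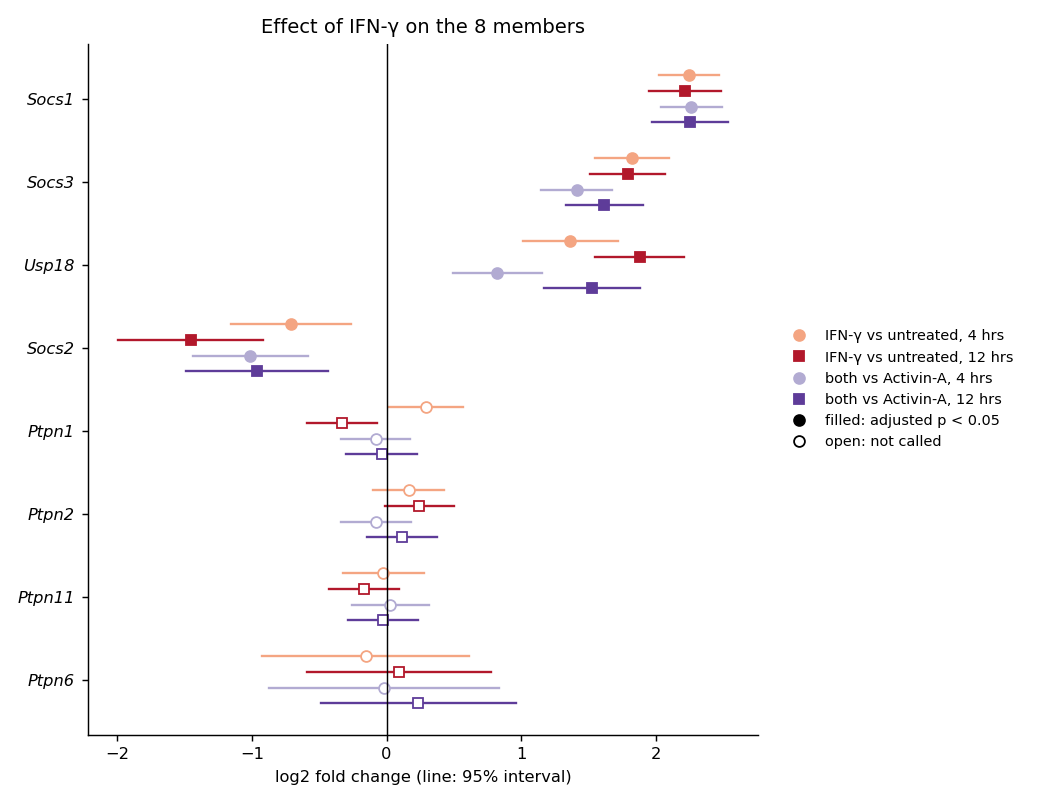
Log2 fold change of each of the 8 genes for IFN-γ against untreated cells and for both factors against Activin-A, at 4 and 12 hrs, with 95% intervals (4 wells per group). Filled symbols have an adjusted p under 0.05. Socs1, Socs3 and Usp18 lie to the right of 0 and Socs2 to the left in all 4 comparisons, and the intervals of Ptpn2, Ptpn6 and Ptpn11 span 0.

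Socs1 (ENSMUSG00000038037), the inhibitor that binds the JAKs of the IFN-γ receptor, had the highest fold of the 8 genes with IFN-γ. Its RefSeq promoter window in GRCm38.p6, 250 bases up to the transcript start on the minus strand (chr16:10785537-10785786), is shown because 2 overlapping ISRE-like matches, given in capitals, lie in it 83 to 68 bases before the start.
Socs1: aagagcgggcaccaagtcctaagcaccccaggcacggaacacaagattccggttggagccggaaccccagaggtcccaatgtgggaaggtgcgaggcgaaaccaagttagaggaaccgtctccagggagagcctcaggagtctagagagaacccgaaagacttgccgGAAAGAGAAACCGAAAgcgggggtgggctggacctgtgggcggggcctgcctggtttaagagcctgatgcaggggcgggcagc
The search was for GAAANNGAAA on either strand, which 978 of 32851 RefSeq windows hold (2.98%). For Socs3 the window is shown up to the first annotated exon (165 bases, minus strand, chr11:117969452-117969616), with a match to the GAS pattern TTCNNNGAA in capitals, 69 to 61 bases before that exon.
Socs3: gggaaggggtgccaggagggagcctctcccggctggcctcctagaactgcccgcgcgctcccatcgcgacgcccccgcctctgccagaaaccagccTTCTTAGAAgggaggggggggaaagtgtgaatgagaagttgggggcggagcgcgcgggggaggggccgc
That pattern reads the same on both strands, shares no base with the ISRE-like matches, which are in the other window, and occurs in 2306 of the windows (7.02%). Windows were found for 5 of the 8 genes, and neither pattern was present in those of Ptpn1, Ptpn6 and Ptpn11. Socs2, Usp18 and Ptpn2 had no window and were not searched. A match of letters is a description and was not tested for binding, and the counts were made on another build, GRCm39.

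At 4 hrs the 4 untreated wells held Socs1 at 43.6, 42.0, 39.3 and 43.7 CPM. With IFN-γ the wells were at 193, 198, 225 and 186 CPM. All wells with IFN-γ thus lay above all untreated ones, 42.2 ± 2.08 CPM (SD, n = 4) against 201 ± 16.8, a 4.74-fold increase (log2FC 2.24, SE 0.11, adjusted p = 1.24e-24 in edgeR's test). At 12 hrs the untreated wells were at 31.5, 35.6, 30.6 and 29.0 CPM. Those with IFN-γ were at 171, 146, 124 and 154 CPM, again without overlap, and the increase was 4.65-fold (log2FC 2.22, SE 0.14, adjusted p = 8.93e-28). Both factors gave 179 ± 7.10 CPM at 4 hrs and 142 ± 21.4 at 12 hrs, against 37.5 ± 1.58 and 29.3 ± 6.44 with Activin-A (log2FC 2.26 and 2.25, SE 0.11 and 0.14). Over the whole experiment, Socs1 lay between 124 and 225 CPM in the 16 wells with IFN-γ and between 23.6 and 43.7 CPM in the 16 wells without.

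Socs3 (ENSMUSG00000053113), which acts on JAKs at gp130 receptors, rose less than Socs1 in fold. The untreated wells at 4 hrs held 44.5, 32.5, 33.8 and 33.7 CPM, the first of them higher than the other 3. With IFN-γ they held 120.4, 128, 152 and 118 CPM. The difference was 3.53-fold (log2FC 1.82, SE 0.14, adjusted p = 7.09e-17 in edgeR's test). At 12 hrs, 32.2, 35.6, 23.0 and 38.3 CPM in untreated cells stood against 108, 113, 124 and 105 CPM with IFN-γ, a 3.46-fold difference (log2FC 1.79, SE 0.14, adjusted p = 1.87e-20). None of these ranges overlapped. In the presence of Activin-A the increase was 2.66-fold at 4 hrs, from 41.4 ± 3.90 to 111 ± 14.1 CPM (log2FC 1.41, SE 0.13), and 3.07-fold at 12 hrs, from 35.5 ± 8.37 to 107 ± 10.9 CPM (log2FC 1.62, SE 0.14).

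Socs2 (ENSMUSG00000020027), the SOCS gene best known for its role in growth hormone and STAT5 signaling, went the opposite way. At 12 hrs it was at 28.4, 20.5, 24.1 and 31.4 CPM in untreated wells. With IFN-γ it was at 10.8, 11.4, 6.44 and 9.08 CPM, which rest on 6 to 11 counts per well. Every well with IFN-γ lay below every untreated one, and the level fell 2.74-fold (log2FC -1.45, 95% interval -1.99 to -0.92, adjusted p = 1.68e-05 in edgeR's test). At 4 hrs the untreated wells were at 27.9, 23.9, 26.2 and 26.8 CPM and those with IFN-γ at 13.4, 20.8, 13.1 and 14.5, the second of them close to the untreated range. This was a 1.64-fold decrease (log2FC -0.71, SE 0.22, adjusted p = 0.0449), and the call was not stable: DESeq2's Wald test gave an adjusted p of 0.245, and leaving out any 1 well other than replicate 2 of IFN-γ gave 0.0529 to 0.147. The call at 12 hrs held in all 13 alternatives. With both factors compared to Activin-A, Socs2 fell by 1.01 on the log2 scale at 4 hrs (SE 0.21, adjusted p = 0.000504), from wells at 32.1, 27.4, 28.0 and 27.9 CPM to wells at 12.6, 14.4, 13.2 and 17.0 CPM. Without replicate 1 of Activin-A, the well that stood apart, the log2FC was -0.94 (adjusted p = 0.00561). At 12 hrs it fell from 24.7, 18.2, 34.9 and 18.4 CPM to 8.97, 13.4, 15.4 and 11.6 CPM (log2FC -0.96, SE 0.27, adjusted p = 0.0082), a call that was lost with DESeq2 (adjusted p = 0.0644) and without replicate 3 of Activin-A, the well at 34.9 CPM (log2FC -0.75, adjusted p = 0.104). Across both times the highest well with IFN-γ, at 20.8 CPM, exceeded the lowest without it, at 18.2 CPM, so that Socs2 was the only 1 of the 4 called genes whose 16 wells with IFN-γ overlapped the 16 without. The share of all genes with such an overlap was not counted.

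Usp18 (ENSMUSG00000030107), the ISG15 protease, rose at both times. The untreated wells at 4 hrs were at 25.3, 31.5, 19.6 and 16.9 CPM. IFN-γ brought them to 74.2, 52.8, 56.9 and 59.6 CPM, a 2.58-fold increase (log2FC 1.36, SE 0.18, adjusted p = 1.81e-08 in edgeR's test). At 12 hrs untreated wells at 19.2, 24.0, 29.5 and 33.7 CPM compared with 126, 111, 77.2 and 73.5 CPM with IFN-γ. Replicates 1 and 2 with IFN-γ were thus well above the other two, and all 4 were above the untreated range (3.68-fold, log2FC 1.88, SE 0.17, adjusted p = 1.56e-17). With both factors compared to Activin-A the log2FC was 0.82 at 4 hrs (SE 0.16, adjusted p = 0.000221) and 1.53 at 12 hrs (SE 0.18, adjusted p = 1.66e-11). In the annotation of GRCm38 Usp18 overlaps the predicted gene Gm44148 on the opposite strand, and the strand setting of the count is not given in the sources used here, so that reads of the pair cannot be told apart.

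**Figure D2:**
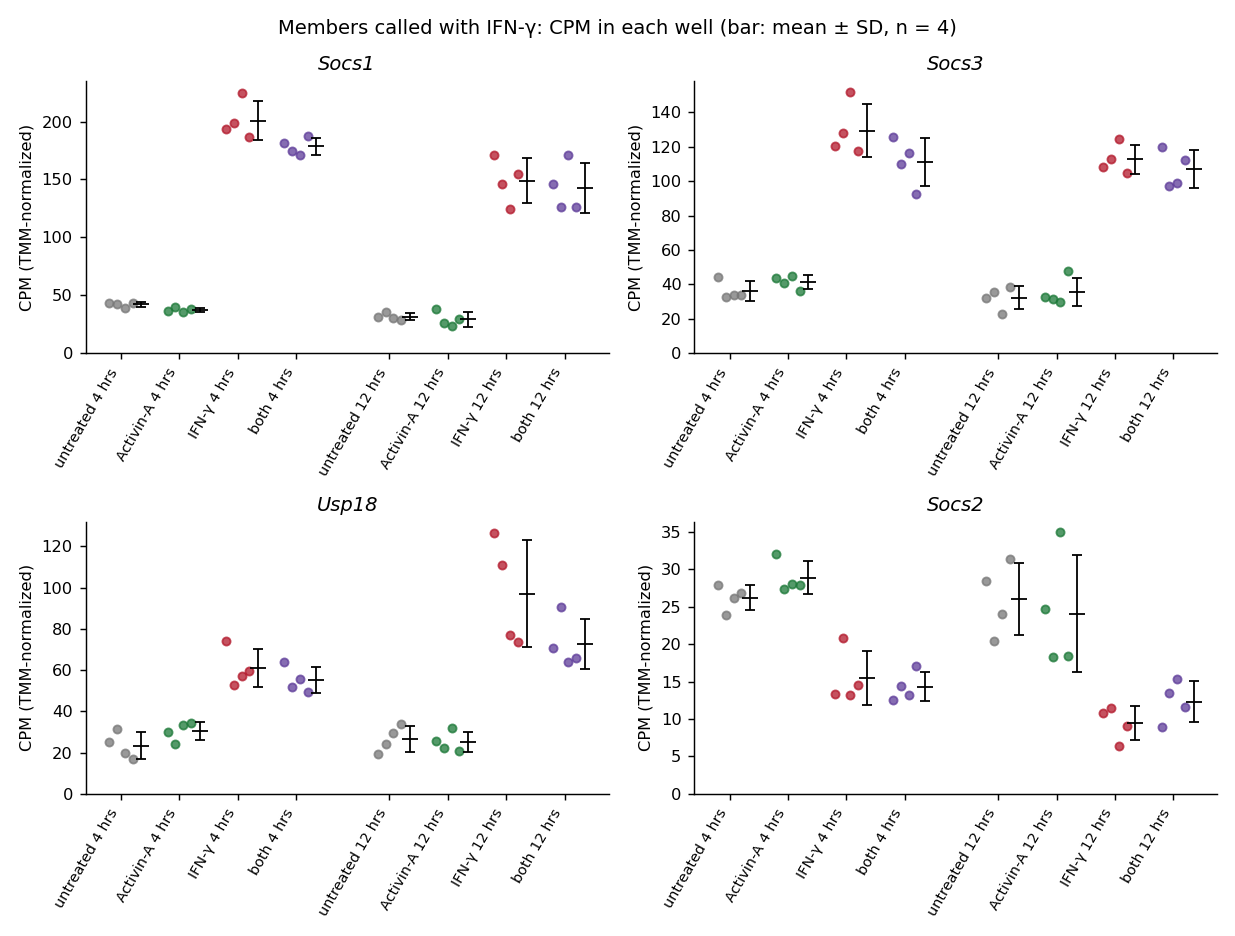
CPM of Socs1, Socs3, Usp18 and Socs2 in each of the 32 wells by treatment and time, on linear axes from 0, with the mean and SD of the 4 wells as bars. Groups with IFN-γ stand above those without for Socs1 (124 to 225 against 23.6 to 43.7 CPM), Socs3 (92.3 to 152 against 23.0 to 48.0 CPM) and Usp18 (49.3 to 126 against 16.9 to 34.2 CPM), and below for Socs2.

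The phosphatase genes stayed within narrower limits. Ptpn1 (ENSMUSG00000027540), whose product acts on JAK2, was at 62.9, 83.1, 67.6 and 55.6 CPM in untreated wells at 4 hrs and at 86.4, 87.5, 73.0 and 79.2 CPM with IFN-γ, with overlapping ranges (log2FC 0.29, 95% interval 0.02 to 0.57, adjusted p = 0.320 in edgeR's test). At 12 hrs the order was the opposite, with 75.2, 72.1, 96.2 and 91.7 CPM untreated and 56.6, 67.5, 61.1 and 74.3 CPM with IFN-γ (log2FC -0.33, 95% interval -0.59 to -0.07, adjusted p = 0.108). Both intervals leave out 0 while neither difference passed the adjustment over all genes. An unadjusted p under 0.05 in edgeR's test was reached by 13.3% of all genes at 4 hrs and 18.6% at 12 hrs. With both factors against Activin-A, the log2FC of Ptpn1 was -0.08 at 4 hrs (95% interval -0.34 to 0.18) and -0.04 at 12 hrs (-0.30 to 0.23).

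Ptpn2 (ENSMUSG00000024539), whose product dephosphorylates JAK1, had group means between 67.8 and 84.4 CPM over the 8 groups. Its wells ranged from 61.8 to 93.4 CPM with IFN-γ and from 58.1 to 94.3 CPM without, and the log2FC with IFN-γ was 0.16 at 4 hrs (95% interval -0.10 to 0.42) and 0.24 at 12 hrs (-0.01 to 0.50). Ptpn11 (ENSMUSG00000043733), the SHP-2 gene, had means between 62.1 and 70.7 CPM. Its log2FC with IFN-γ was -0.02 at 4 hrs (-0.33 to 0.28) and -0.17 at 12 hrs (-0.42 to 0.09), and the lowest and highest wells, at 45.0 and 93.3 CPM, both came from groups at 4 hrs with IFN-γ. For both genes the intervals at either time end at or below 0.50 on the log2 scale in size.

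Ptpn6 (ENSMUSG00000004266), the SHP-1 gene of blood cells, had 4 to 17 counts per well, with group means of 5.80 to 9.83 CPM, close to the floor. Its intervals were correspondingly wide, from -0.93 to 0.62 on the log2 scale for IFN-γ at 4 hrs and from -0.59 to 0.78 at 12 hrs, and smaller differences were not detectable at this depth. It overlaps the predicted gene Gm20531 on the opposite strand, with the same limit as for Usp18.

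**Figure D3:**
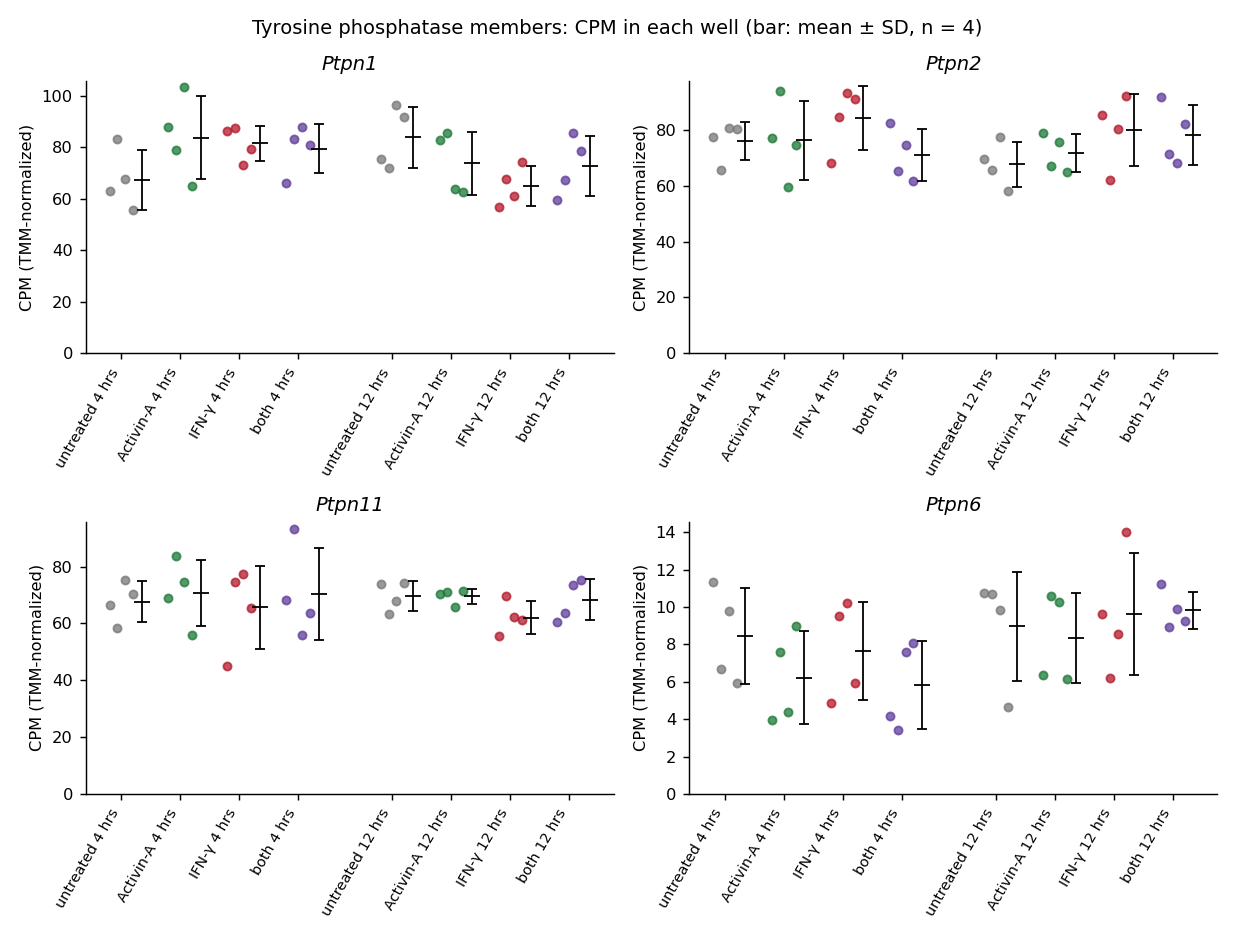
CPM of Ptpn1, Ptpn2, Ptpn11 and Ptpn6 in each well by treatment and time, on linear axes from 0, with the mean and SD of the 4 wells as bars. The wells with and without IFN-γ overlap for all 4 genes, and those of Ptpn6 lie between 3.39 and 14.0 CPM.

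Activin-A was compared with untreated cells, and both factors with IFN-γ, to ask whether it alters the level of these genes alone or under IFN-γ. None of the 8 genes was called in any of the 4 comparisons, in which edgeR called 1.64% of all genes with Activin-A at 4 hrs, 2.41% at 12 hrs, 0.81% with both factors against IFN-γ at 4 hrs and 1.03% at 12 hrs. DESeq2's Wald test also called 0 of the 8 in each. At an unadjusted p under 0.05, edgeR gave 2 of the 8 with Activin-A at 4 hrs, 0 at 12 hrs, and 0 and 1 with both factors against IFN-γ, where 11.3%, 11.3%, 9.3% and 10.3% of all genes were under that threshold. With Activin-A at 4 hrs these were Ptpn1 (log2FC 0.33, adjusted p = 0.268) and Usp18 (log2FC 0.40, adjusted p = 0.432), and without replicate 1 of Activin-A the log2FC were 0.30 and 0.42 (adjusted p = 0.435 and 0.509). Usp18 was the 1 gene with both factors against IFN-γ, where wells at 70.7, 90.6, 63.7 and 65.9 CPM stood against 126, 111, 77.2 and 73.5 CPM with IFN-γ at 12 hrs (log2FC -0.39, 95% interval -0.66 to -0.11, adjusted p = 0.216).

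For Socs1, the difference between both factors and IFN-γ was -0.16 on the log2 scale at 4 hrs (95% interval -0.33 to 0.01) and -0.06 at 12 hrs (-0.27 to 0.14). That of Socs3 was -0.21 (-0.43 to 0.01) and -0.07 (-0.30 to 0.16). Socs2 had wider intervals, from -0.64 to 0.36 at 4 hrs and from -0.26 to 1.05 at 12 hrs. The wells of the groups compared overlapped for each of these 3 genes at both times.

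**Figure D4:**
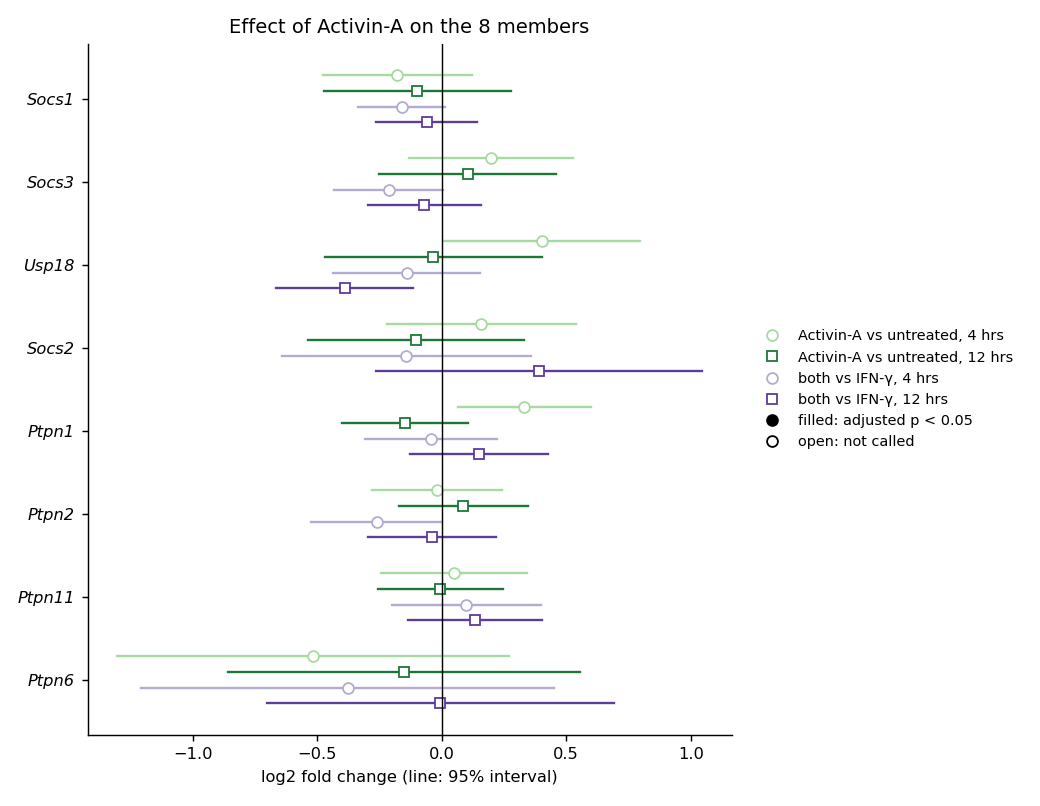
Log2 fold change of the 8 genes for Activin-A against untreated cells and for both factors against IFN-γ, at 4 and 12 hrs, with 95% intervals (4 wells per group). All symbols are open because no gene had an adjusted p under 0.05, while the intervals of Usp18 for both factors against IFN-γ at 12 hrs (-0.66 to -0.11) and of Ptpn1 and Usp18 for Activin-A at 4 hrs (0.07 to 0.60 and 0.01 to 0.80) leave out 0.

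The interaction of the factors, the effect of Activin-A under IFN-γ minus its effect alone, was called for 0 of the 8 genes by edgeR and by DESeq2 at either time. Over all genes, edgeR called 0% at 4 hrs and 0.0111% at 12 hrs. At 4 hrs, Socs3 (-0.41, 95% interval -0.81 to -0.01) and Usp18 (-0.54, -1.04 to -0.05) were the 2 genes with an unadjusted p under 0.05 in edgeR, with adjusted p of 0.890 and 0.865, while 5.53% of all genes were under that threshold in edgeR, and DESeq2 gave 0 such genes. Without replicate 1 of Activin-A the interactions were -0.36 and -0.55 (adjusted p = 0.914 and 0.855). At 12 hrs none of the 8 genes had an unadjusted p under 0.05 with either tool, while 6.82% of all genes were under that threshold in edgeR.

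The effect of IFN-γ was then compared between the time points in a fit of all 32 wells. No gene of the 8 differed between 12 and 4 hrs after adjustment, and 0.579% of all genes did. Socs1 and Socs3 kept nearly the same fold, with differences of -0.01 (95% interval -0.43 to 0.40) and -0.02 (-0.44 to 0.41) on the log2 scale. The difference was 0.53 for Usp18 (-0.01 to 1.06, adjusted p = 0.690) and -0.73 for Socs2 (-1.43 to -0.03, adjusted p = 0.651). Ptpn1, which was not called at either time, had a difference of -0.62 (SE 0.19, adjusted p = 0.199). Socs2 and Ptpn1 were the 2 genes with an unadjusted p under 0.05 in edgeR, beside 7.38% of all genes, DESeq2 gave 1 such gene, and neither tool called any. Between untreated cells at 12 and 4 hrs edgeR called 0 of the 8 genes and 4.9% of all genes, with 2 genes at an unadjusted p under 0.05 in edgeR, beside 17.5% of all genes, and 2 in DESeq2, which also called none. These 2 in edgeR were Socs1, whose wells did not overlap between the times (29.0 to 35.6 against 39.3 to 43.7 CPM, log2FC -0.41, adjusted p = 0.159), and Ptpn1 (log2FC 0.30, adjusted p = 0.219).

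The other genes of the pathway, taken from lists by role, were tested in the same fits. Of the further inhibitors, the CIS, SOCS, PIAS and adaptor genes, edgeR and its adjustment called 0 of 10 with IFN-γ at either time, with 1 and 3 at an unadjusted p under 0.05, where 13.3% and 18.6% of all genes were. Cish, the closest relative of Socs2 and a STAT5 target, was at 9.71 ± 4.11 CPM untreated and 13.6 ± 3.99 with IFN-γ at 4 hrs, and at 9.14 ± 2.47 and 16.5 ± 2.24 CPM at 12 hrs (log2FC 0.51 and 0.80, adjusted p = 0.550 and 0.0942). Sh2b3, an adaptor that inhibits JAK2, was the 1 gene of this list that fell with Activin-A, at 12 hrs, from 139 ± 9.13 to 103 ± 8.60 CPM (log2FC -0.41, adjusted p = 0.00717, and 0.0545 without replicate 3 of untreated cells), where 1.16% of all genes fell.

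Of 12 other cytoplasmic phosphatase genes, 7 were tested and 2 rose with IFN-γ at each time, beside 4.29% of all genes at 4 hrs and 6.43% at 12 hrs. Ptpn13, a large phosphatase with PDZ domains, rose from 12.2 ± 3.15 to 27.9 ± 7.35 CPM at 4 hrs (log2FC 1.23, adjusted p = 0.000362) and from 20.9 ± 3.02 to 33.9 ± 7.41 CPM at 12 hrs (log2FC 0.67, adjusted p = 0.0206). The second call was lost with DESeq2 (adjusted p = 0.132) and without any 1 of 4 wells (0.0549 to 0.164). Ptpn13 rose as well with both factors compared to Activin-A (log2FC 1.38 and 1.27). Ptpn12 rose at 4 hrs (log2FC 0.45, adjusted p = 0.041) and Ptpn14 at 12 hrs (log2FC 0.51, adjusted p = 0.0142), and DESeq2 called neither (adjusted p = 0.210 and 0.112). The call of Ptpn12 was also lost without the filter on low counts (0.0551), with a replicate block (0.0548) and without any 1 of 5 wells (0.0537 to 0.332), and that of Ptpn14 without replicate 1 of untreated cells (0.115).

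Upstream of the inhibitors, 1 of 9 receptor genes tested fell with IFN-γ at 4 hrs, where 0.766% of all genes fell, and 2 rose at 12 hrs, where 6.43% rose. Ifngr2, a chain of the IFN-γ receptor, went from 146 ± 6.55 to 109 ± 12.1 CPM at 4 hrs (log2FC -0.42, adjusted p = 0.0117), a call lost with DESeq2 (adjusted p = 0.0521) and without replicate 2 of IFN-γ (0.117). At 12 hrs Ifnar2, the receptor chain to which USP18 binds, went from 21.9 ± 7.19 to 40.6 ± 3.80 CPM (log2FC 0.84, adjusted p = 0.00476), a call lost with DESeq2 (0.286) and without replicate 2 of untreated cells (0.0635). Ghr, the growth hormone receptor, rose by 0.24 on the log2 scale (adjusted p = 0.0111), and not without replicate 2 of either group (0.0752 and 0.0798). Of 3 JAK genes tested, Jak2 rose at both times (log2FC 0.64 and 0.67, adjusted p = 0.0114 and 0.0122), where 4.29% and 6.43% of all genes rose. DESeq2 did not call Jak2 at either time (adjusted p = 0.0784 and 0.101). At 4 hrs edgeR's call was lost without replicate 2 of untreated cells or replicate 3 of IFN-γ (0.101 and 0.0607). At 12 hrs it was lost without replicate 1 of untreated cells (0.0806).

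The transcription factors that carry the signal and the ISG15 cycle, in which USP18 acts, mostly rose. Of 6 STAT and IRF genes tested, 4 rose at both times, beside 4.29% of all genes at 4 hrs and 6.43% at 12 hrs. Irf1 rose from wells at 40.7 to 44.0 CPM to wells at 756 to 801 CPM at 4 hrs and from 38.3 to 53.4 CPM to 676 to 732 CPM at 12 hrs (log2FC 4.22 and 3.96). The log2FC of Stat2 were 2.45 and 2.14, those of Stat3, which SOCS3 restrains at gp130 receptors, 2.13 and 1.96, and those of Irf9 1.62 and 1.97. Against the same shares of all genes, all 4 genes of the ISG15 cycle tested rose at both times: Isg15 itself (log2FC 1.73 and 2.47), its activating enzyme Uba7 (2.72 and 2.41), its conjugating enzyme Ube2l6 (2.07 and 2.98) and the ligase Herc6 (2.28 and 2.31). At 12 hrs Isg15 was at 350 ± 66.1 CPM with IFN-γ and 257 ± 37.9 CPM with both factors, with overlapping wells (log2FC -0.45, adjusted p = 0.000321), a difference that DESeq2 did not call (adjusted p = 0.217). It was the only 1 of the 4 cycle genes that edgeR called there, beside 0.568% of all genes called lower, and Usp18 had a log2FC of -0.39 in the same comparison, as given above.

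With both factors compared to Activin-A, the same 4 STAT and IRF genes and all 4 genes of the ISG15 cycle rose at both times, beside 4.41% of all genes at 4 hrs and 6.18% at 12 hrs, with log2FC of 4.40 and 3.96 for Irf1 and 1.61 and 1.90 for Isg15. Apart from Ptpn13, further calls among the pathway's other genes came at 12 hrs only, and each was lost in some alternatives. Ifngr2 and Ifnar2 were called at neither time in this comparison. Jak2 rose (log2FC 0.60, adjusted p = 0.0312), as did Tyk2, a JAK of the type I interferon receptor (0.65, adjusted p = 0.0448), and Ghr (0.22, adjusted p = 0.0271). Stat5b, which acts downstream of the growth hormone receptor, rose as well (0.69, adjusted p = 0.0491), and it is named although 4 genes of its list had larger changes. DESeq2 called none of the 4 (adjusted p of 0.0987 to 0.25). Without 1 well, edgeR's call was lost in 4 of 8 fits for Jak2 (adjusted p up to 0.209), 6 for Tyk2 (0.182), 3 for Ghr (0.201) and 6 for Stat5b (0.395). A replicate block in edgeR's test also lost the calls of Tyk2 (adjusted p = 0.0512) and Stat5b (0.0515). That of Tyk2 was lost without the filter on low counts as well (0.0581), and that of Stat5b with RLE normalization (0.0509).

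**Figure D5:**
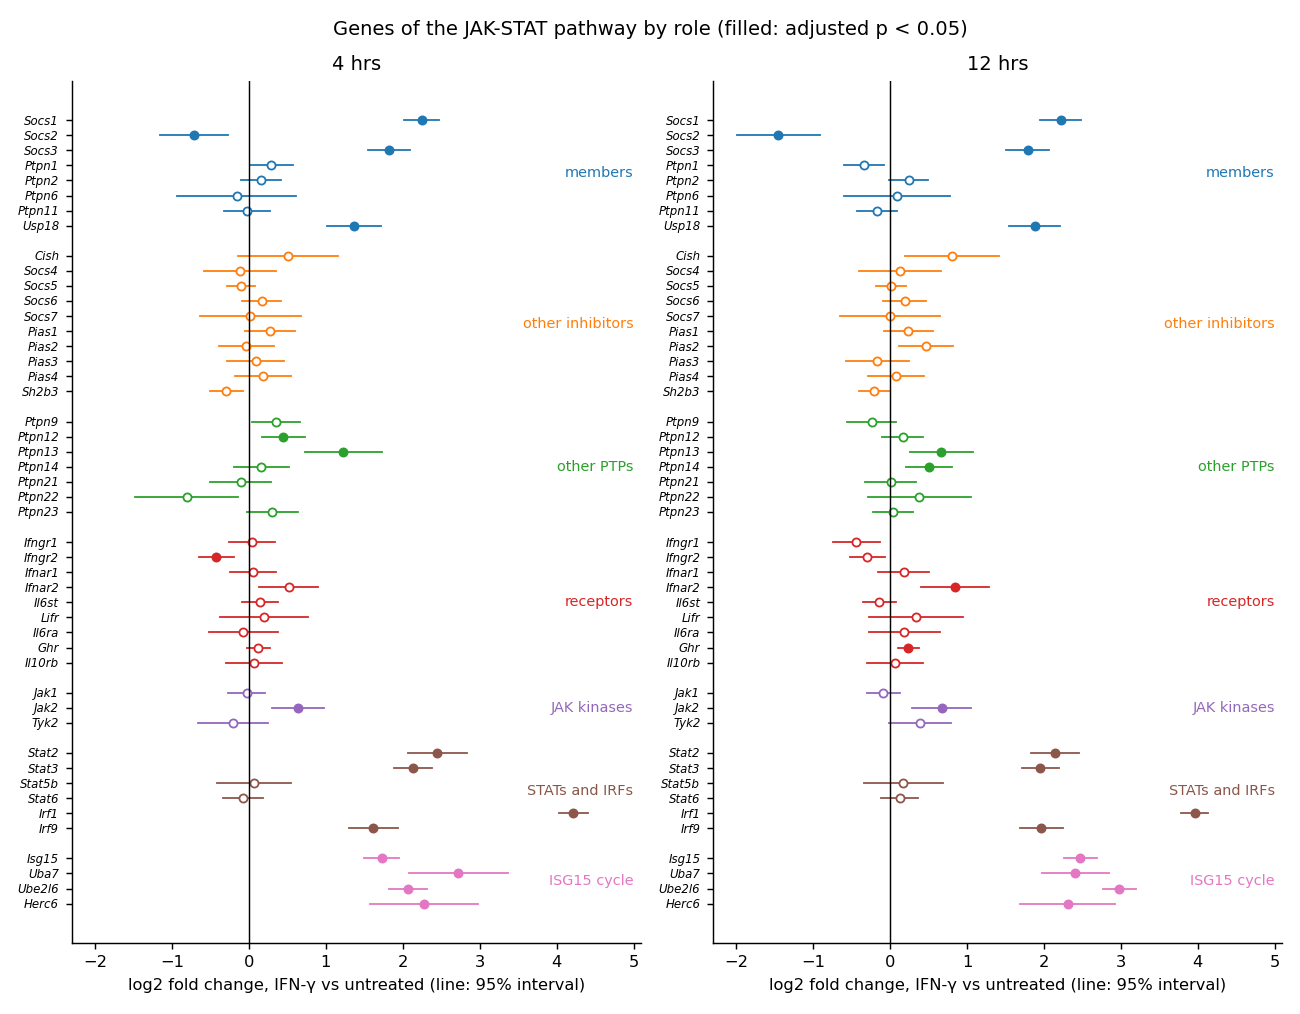
Log2 fold change of IFN-γ against untreated cells at 4 hrs (left) and 12 hrs (right) for the tested genes of each role, with 95% intervals (4 wells per group). Filled symbols have an adjusted p under 0.05, as for 4 of 6 STAT and IRF genes, all 4 genes of the ISG15 cycle and 0 of 10 other inhibitors at both times, beside 5.06% of all genes at 4 hrs and 9.25% at 12 hrs.

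The genes whose level across the 32 wells was most like that of each called gene were found by Pearson's r of log2 CPM among 9331 genes, as a description. For Socs1 they included Tcf7 and Iigp1 (r of 0.98 for each), and for Socs3 they were Igtp, Irgm1 and Tcf7 (0.97 for each). Iigp1, Igtp and Irgm1 code for GTPases induced by IFN-γ, and Tcf7 for a transcription factor of the Wnt pathway. For Usp18 they were Ifi44, Bst2 and Serping1 (0.95, 0.94 and 0.94), of which Bst2 codes for the antiviral protein tetherin and Serping1 for the C1 inhibitor of complement. For Socs1, Socs3 and Usp18 the wells with and without IFN-γ formed separate clusters, and all wells share 1 cell line, so that these values mainly describe the step between the clusters. Socs2 had lower values, 0.79 with the collagen gene Col3a1 and 0.77 with each of Pgm2l1 and Mpzl1.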

How the data were processed

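BRB-seq was run on 32 wells of YUMM3.3 cells, 4 in each of 8 groups of treatment and time as labelled. The deposited values are raw, not normalized, counts for each gene. The submitters' processing notes name STAR 2.7.10b, featureCounts, DESeq2 1.36.0 and the build GRCm39. The handling of unique molecular identifiers, the strand setting and the annotation are not given in the sources used here, and copies of 1 molecule, or reads of overlapping genes, may be among the counts. Of the 12451 genes listed by Ensembl identifier, each above 0 in at least 4 wells, 12437 were matched to a symbol. The 8 genes and the lists by role were chosen with earlier results of these data known.

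Counts were filtered with filterByExpr, normalized by TMM and tested with edgeR 4.0.16 (glmQLFit and glmQLFTest, R 4.3.3) over the 16 wells of a time point, or all 32 for contrasts between times. Benjamini-Hochberg adjustment covered all genes tested. CPM used TMM factors over all 32 wells, log2 CPM a prior count of 2, and 95% intervals the t distribution with edgeR's degrees of freedom. From each list by role, genes were named where called with IFN-γ or Activin-A, in general at most 4 per list and comparison, plus Irf1, Isg15 and Cish. The 3 genes most like each called gene were found by Pearson's r. Some genes are not reported here, and the counts of their lists leave them out. Promoter windows came from RefSeq (GRCm38.p6) and were read with Python 3.11.15.

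Alternatives were DESeq2 1.42.0's Wald test, which the study names, RLE normalization, no filter, the replicate number as a block, all 32 wells or only the groups in the contrast, and each well left out in turn. The fits were tested before use on simulated data with the same spread for all genes. Changes were placed there only in genes with higher counts, so changes in genes with low counts were not covered.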

Additional observations from a re-analysis of the deposited data

Results flagged for a closer look

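In 4 of 64 groups of 4 wells tested by Dixon's criterion, 1 well lay far from the other 3, and chance gives about 1 in 20. Socs2 was at 32.1 CPM in replicate 1 of Activin-A at 4 hrs, the well that stood apart from its group, against 27.4 to 28.0 CPM in the others. Socs3 was at 44.5 CPM in replicate 1 of untreated cells at 4 hrs, against 32.5 to 33.8, and at 48.0 CPM in replicate 4 of Activin-A at 12 hrs, against 29.8 to 32.7. Ptpn6 was at 4.64 CPM in replicate 4 of untreated cells at 12 hrs, against 9.84 to 10.7.

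Among the genes of the ISG15 cycle, the effect of IFN-γ was larger at 12 than at 4 hrs for Isg15 (difference of 0.76 on the log2 scale, edgeR adjusted p = 0.0163) and Ube2l6 (0.93, adjusted p = 0.00117), beside 0.439% of all genes called higher. The other two were not called, with -0.30 for Uba7 (adjusted p = 0.941) and 0.05 for Herc6 (0.998). The call of Isg15 was lost in 5 of the 16 fits that left out a well, with adjusted p up to 0.0901, and that of Ube2l6 in none of them. Usp18, which takes ISG15 off its targets, had a difference of 0.53 (adjusted p = 0.690).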

How the results depend on the processing

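The number of the 8 genes called stayed within 1.5 times in all 12 comparisons under every alternative run, at 3 or 4 for IFN-γ against untreated cells and 0 wherever it had been 0. Of 208 alternative values for the 16 calls of these genes, 196 kept the call, 12 lost it and 0 changed direction, and the lost calls were all of Socs2. Those for IFN-γ at 4 hrs were -0.72 without the filter (adjusted p = 0.0645), -0.72 with a replicate block (0.0553), -0.73 with DESeq2 (0.245) and -0.65 to -0.76 in 7 of 8 fits without a well. Of 744 alternative values for other named genes 60 lost the call and 0 changed direction. Same-numbered wells did not deviate together (mean r across genes -0.00023 in 112 pairs, 0.000081 in 336 others), so these values showed no pairing by number. The labels do not say whether the numbers mark pairs. The block left 445 against 462 genes called with IFN-γ at 4 hrs and 822 against 830 at 12 hrs.

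DESeq2 called 84 against 150 genes with Activin-A at 4 hrs and 136 against 216 at 12 hrs, 44 against 74 and 61 against 92 with both factors against IFN-γ, 549 against 863 with both against Activin-A at 12 hrs, and 284 against 457 between the untreated groups. Without 1 well, counts were 47 to 49 with both against IFN-γ at 4 hrs (without replicates 1 or 2 of IFN-γ or 4 of both), 35 against 54 for the time contrast of IFN-γ (without replicate 4 of untreated cells at 4 hrs) and 302 between the untreated groups (without replicate 1 at 12 hrs). The interaction had 1 gene at 4 hrs without the filter, with all 32 wells or without replicate 1 of Activin-A, and 0 to 6 genes at 12 hrs over the wells left out, 8 without the filter and 0 with DESeq2. Depth limits Socs2 with IFN-γ at 12 hrs (6 to 11 counts per well) and Ptpn6 (4 to 17).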
